A study of Mus musculus with 2 samples.

Results

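The cells described here are 111 barcodes of the Repop D5 library, a droplet single-cell RNA library of mouse brain cells taken while microglia were growing back after depletion. They were selected on their own expression values: among the 553 Repop D5 barcodes with at least 500 genes and under 10% of counts from mitochondrially encoded (mt-) genes, they are the 20% with the highest summed share of counts from Mki67, Top2a, Ccnb1, Ccnb2, Cenpf, Cenpe, Hmmr, Plk1, Nusap1, Cdc20, Ube2c and Birc5. The other 442 retained Repop D5 barcodes serve as the comparison. The whole series holds 1162 retained barcodes. Both groups of the study are adult wild-type C57BL/6J mice. The Repop D5 library pooled 6 mice. They received PLX5622 for 14 days, a drug that blocks the survival receptor Csf1r and so depletes microglia, and were returned to control diet for 5 days before the brain was taken. The CD library pooled 4 mice on control diet for 19 days, and 609 of its barcodes were retained. Cells were sorted as CD11b+/CD45+, a gate that microglia share with monocytes and neutrophils, after dissociation in warm papain. The labels do not tie barcodes to mice.

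As background, a dividing cell copies its DNA in S phase, prepares for division in G2 and separates its chromosomes in mitosis. Cyclin B with the kinase Cdk1 drives entry into mitosis, spindle motors and kinetochores align and pull the chromosomes, and the anaphase promoting complex with Cdc20 ends mitosis by marking cyclin B and other proteins for destruction. Many of the genes involved are transcribed late in the cycle through CCAAT boxes and the cell cycle homology region (CHR) of their promoters, and are held down outside it by the DREAM complex. Adult microglia divide rarely, and after loss of most of the population the remaining cells are known to proliferate strongly.

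Counts are unique molecular identifiers (UMIs), each standing for 1 captured RNA molecule. Counts of a gene were summed over a set of barcodes and scaled to a common total of 1000000 (CPM). A ratio divides the CPM of the members by the CPM of the other Repop D5 barcodes, with an exact 95% interval for 2 counts. A gene was counted as higher or lower when the ratio was at least 1.5 or at most its inverse and the interval lay clear of 1. Each group is 1 library, so no test was possible and none was made. The intervals cover counting error only, neither the spread between cells nor that between mice, and because the members were chosen from these same counts every ratio is a description.

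The members summed to 2785157 UMIs and the other Repop D5 barcodes to 8252764. The 12 genes gave 6867 UMIs in the members and 4680 in the others. Per barcode, the share of UMIs from the 12 genes ran from 0.149% to 0.503% in the members with a median of 0.236%, and from 0 to 0.149% in the others with a median of 0.0427%. The score falls without a step at the limit: the last member had 0.1491% and the first barcode outside 0.1488%. The members thus lie at the upper end of a continuous range. Of the retained Repop D5 barcodes, 14 had 0 UMIs of the 12 genes, against 536 of the CD barcodes. In CD, 1 of 609 barcodes passed the same limit (0.164%, exact 95% interval 0.00416 to 0.911). That barcode stood at 0.848%, above every Repop D5 barcode, with 67 UMIs of the 12 genes among 7903 UMIs, and the next CD barcode had 0.109%. The barcode lists of the 2 libraries share 1 barcode sequence, which is not that barcode: it had 0.0512% in Repop D5 and 0% in CD. Whether the barcode at 0.848% is a dividing cell of the CD mice was not tested.

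**Figure D1:**
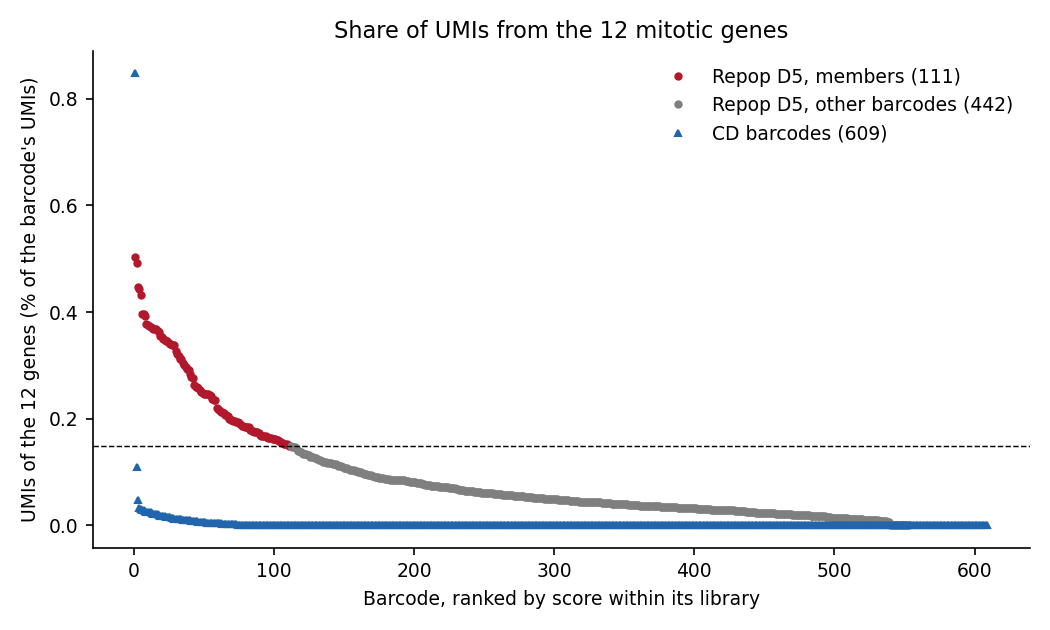
Share of each barcode's UMIs from the 12 genes (vertical axis, percent), with barcodes ranked within their library (horizontal axis). Red circles are the 111 members, grey circles the 442 other Repop D5 barcodes, blue triangles the 609 CD barcodes, and the dashed line is the lowest member, at 0.149%. The Repop D5 curve has no step at the line, and 1 CD barcode lies above it.

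The 12 genes themselves, whose values chose the members, differed in how far they set them apart. Cenpf, a kinetochore protein of G2 and mitosis (ENSMUSG00000026605, chromosome 1, 189640606 to 189688086, mm10), had 152 CPM in members and 20.2 CPM in the others, a ratio of 7.51. Nusap1, a microtubule binder of the spindle, had 112 and 16.4 CPM in members and others, and Plk1, the kinase polo, 86.9 and 13.1 CPM. Ccnb1, cyclin B1, had 162 CPM in members and 25.3 CPM in the others (ratio 6.41), while Ccnb2, cyclin B2, had 164 and 72.6 CPM, the smallest ratio of the 12 at 2.26. Ratios of Hmmr, a spindle protein, Cenpe, a kinetochore motor, and Cdc20 were 6.37, 5.75 and 5.20.

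The most abundant of the 12 was Ube2c, the ubiquitin conjugating enzyme of the anaphase promoting complex (chromosome 2, 164769898 to 164778822). It ran from 1 to 42 UMIs per member with a median of 10, and from 0 to 19 per other barcode with a median of 1, so the 2 sets overlap. Ube2c was the only one of the 12 found in all members. Nusap1 was missing from 28 members, Cenpe from 22, Cenpf from 20 and Mki67, the common marker of cycling cells (chromosome 7, 135689784 to 135716361), from 5. Ube2c, Birc5 (survivin, of the chromosomal passenger complex) and Top2a (topoisomerase II alpha, which untangles chromosomes; chromosome 11, 98992943 to 99024189) made 18.2%, 14.7% and 14.4% of the members' UMIs of the 12, so these genes weighed most in the choice. A member carried a median of 11 of the 12 genes, from 5 to 12, and 47 members carried all. The others carried a median of 4, from 0 to 12, and 5 carried all. When the barcodes were chosen on 6 of the genes alone, the 6 left out had ratios of 1.98 (Ccnb2) to 6.75 (Nusap1), and 101 or 100 of the 111 members were chosen again. The 6 genes are part of the score that chose the members, so this overlap is largely built in. It is no independent support for the choice.

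Shares of barcodes with a UMI depend on depth, so barcodes were thinned to 3000 UMIs. A Mki67 UMI was then found in 55 of 111 members (49.5%, 39.9 to 59.2), in 78 of 442 others (17.6%, 14.2 to 21.5) and in 3 of 599 CD barcodes (0.501%, 0.103 to 1.46). Before thinning the shares were 95.5%, 54.8% and 0.985%, at median depths of 21972, 15642 and 5982 UMIs. Neutrophils do not divide, and of the 7 neutrophil-like Repop D5 barcodes (median 5416 UMIs) 0 had one after thinning, which with so few barcodes leaves an exact upper bound of 41.0%. Before thinning 1 of the 7 had one. For Birc5 the thinned shares were 67 of 111 members (60.4%, 50.6 to 69.5), 117 of 442 others (26.5%, 22.4 to 30.8) and 2 of the 7 neutrophil-like barcodes (28.6%, 3.67 to 71.0), and 5 of the 7 had a Birc5 UMI before thinning. For Ube2c they were 72 of 111 members (64.9%), 97 of 442 others (21.9%) and 1 of 7 neutrophil-like barcodes (14.3%, 0.361 to 57.9), with 4 of 7 before thinning. The shares of the others in Birc5 and Ube2c lie inside these intervals, but intervals from 7 barcodes are too wide to mark a background. The Birc5 interval holds the members' 60.4% as well, and the 7 barcodes are themselves among the 442 others. Of the 50 monocyte-like barcodes, 8 had a Mki67 UMI (16%, 7.17 to 29.1), 8 a Birc5 UMI and 9 a Ube2c UMI after thinning. Before thinning 24 of the 50 had a Mki67 UMI. Of the 599 CD barcodes, 3 had a Birc5 UMI and 2 a Ube2c UMI after thinning. What part of the shares of the others is background was not tested.

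The label was set against cell type markers. Of the 111 members 106 fell in 1 cluster, led by Nusap1, Hist1h2ap and Cenpe. That cluster also held 62 other Repop D5 barcodes. In every cluster 9 or 10 of 10 microglia markers reached 50 CPM, the monocyte-like (9) and neutrophil-like (10) clusters included, so this count does not tell the cell types apart. None of the 50 monocyte-like and none of the 7 neutrophil-like barcodes was a member, and their highest scores were 0.117% and 0.0672%. The clusters were built with these same genes, so these placements are no independent evidence. The microglia markers summed to 11470 CPM in members and 11664 CPM in the other Repop D5 barcodes. Per barcode they ran from 4327 to 23593 CPM in members and from 1846 to 32037 CPM in the others. Tmem119, a surface protein of microglia, had 857 CPM in members and 811 CPM in the others, P2ry12, a purinergic receptor of resting microglia, 470 and 503 CPM, and Csf1r, the target of the drug, 1295 and 1412 CPM. In CD these 3 genes stood at 2021, 2988 and 3259 CPM.

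Markers of other cell types were summed as well. The 6 NK cell markers and the 4 ependymal markers had 0 UMIs, and 5 of the 6 T cell markers (Cd3d, Cd3e, Cd3g, Cd4 and Cd8a) were at 0. Of the haematopoietic progenitor markers, Kit and Ctsg were at 0 and Cd34 had 313 CPM in members and 314 CPM in the others. Of the neural progenitor markers, Sox2, Pax6, Dcx and Hes5 were at 0, and Nes, the intermediate filament gene nestin, had 78.3 CPM in members and 65.2 CPM in the others. Monocyte markers summed to 165 CPM in members and 281 CPM in the others. Neutrophil markers summed to 693 CPM in members, from 234 to 1388 CPM per barcode, and to 2611 CPM in the others, from 0 to 387864 CPM. Outside the monocyte-like and neutrophil-like clusters the other barcodes stood at 150.5 CPM for monocyte and 1000 CPM for neutrophil markers.

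The members had more UMIs per barcode. Their UMI counts ran from 4275 to 67920 with a median of 21972, against 4308 to 98130 with a median of 15642 in the others, a ratio of medians of 1.40. The ranges overlap almost wholly. Genes per barcode had medians of 4416 in members and 3526.5 in the others. After thinning to 3000 UMIs these were 1333 and 1285.5. The median share of mt- counts was 4.55% in members and 4.87% in the others. The 89 barcodes that are rich in S phase counts and no members had a median of 21268 UMIs, and the 111 barcodes with the least counts of both phases 10674. Across the 553 barcodes, Spearman's rho between the score and the UMI count was 0.317, and within the 111 members it was -0.0947. Depth and score come from the same counts. A doublet caller marked 3 of 111 members (2.70%, 0.561 to 7.70) and 9 of 442 others (2.04%, 0.935 to 3.83), and none was removed. What part doublets have in the higher counts was not tested.

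Of 7157 genes with at least 10 CPM over the Repop D5 barcodes, the 12 left out, 339 were higher in members (4.74%) and 166 lower (2.32%), and the log2 ratio of all of them had a median of 0.03. Outside the monocyte-like and neutrophil-like clusters, 337 were higher (4.71%) and 125 lower (1.75%). The counts of every list below are to be read against these shares. Over the 6 lists of G2 and mitosis together, again without the 12 genes, 93 of 121 measured genes were higher and 0 were lower (median log2 ratio 1.28).

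**Figure D2:**
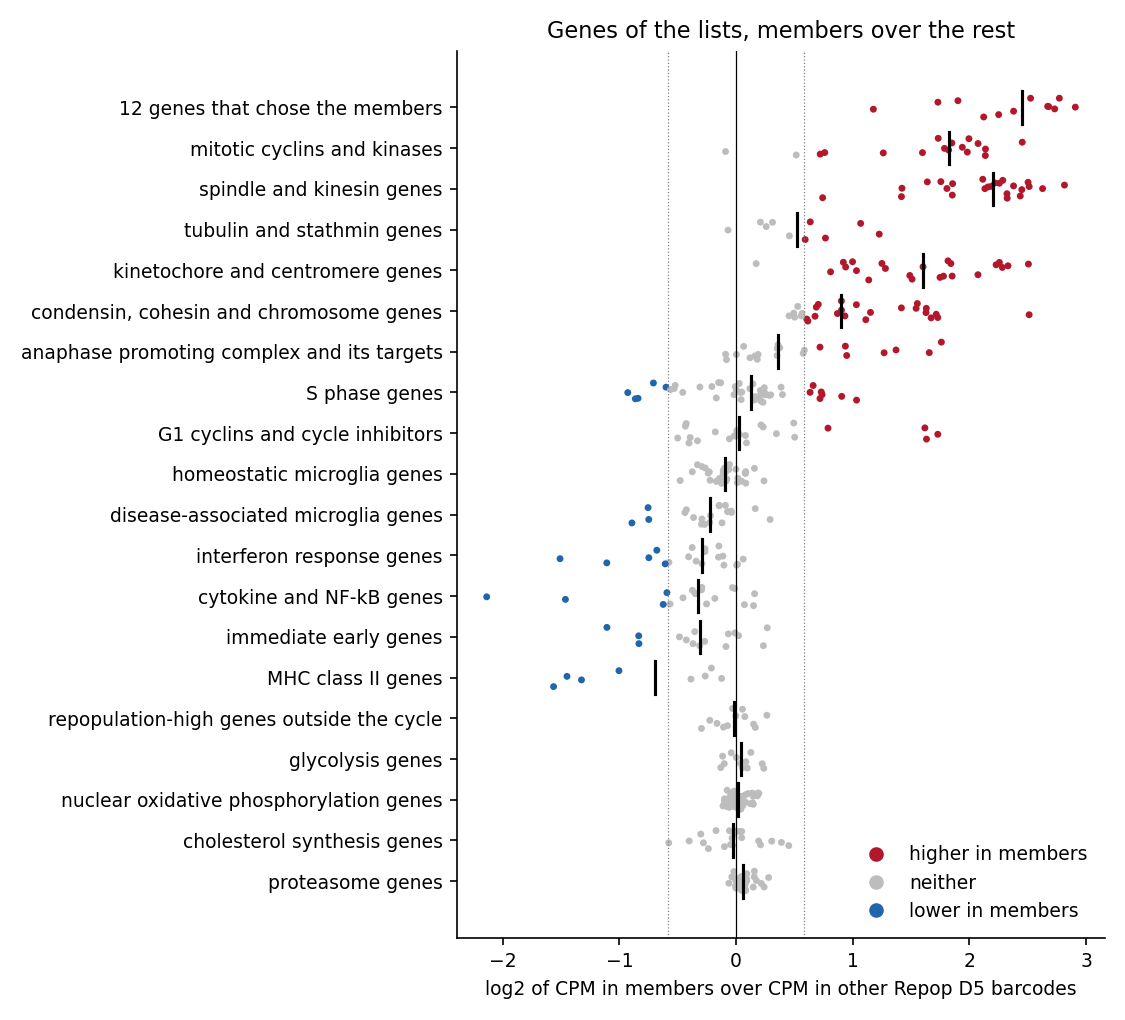
Each point is a gene of the named list, placed by the log2 ratio of its CPM in members over its CPM in the other Repop D5 barcodes (horizontal axis). Red points were higher and blue points lower at 1.5-fold with an interval clear of 1, black bars are list medians and dotted lines mark 1.5-fold. The mitotic lists lie to the right, up to a log2 ratio of 2.82 for Kif20b outside the 12 genes, and metabolic lists lie around 0.

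All 24 measured spindle and kinesin genes were higher in members, and their median log2 ratio was 2.20. Kif20b, a kinesin of cell abscission (chromosome 19, 34922361 to 34975745), had 47.8 CPM in members and 6.8 CPM in the others, a ratio of 7.04 (5.11 to 9.80). Spag5 (astrin), which binds spindle and kinetochore microtubules, had a ratio of 6.18. Racgap1, of the central spindle that guides cell cleavage, had 132 CPM in members and 36.6 CPM in the others. Arl6ip1, a membrane protein of the endoplasmic reticulum, was the most abundant of the list at 705 CPM in members and 421 CPM in the others and had its smallest ratio, 1.67 (1.58 to 1.77). Tubulin genes differed among themselves: 5 of 10 tubulin and stathmin genes were higher (median log2 ratio 0.52). Tuba1c had 284 CPM in members and 121 CPM in the others and Tubb4b 364 and 174 CPM, while Tuba1a had 250 and 262 CPM (ratio 0.95, 0.87 to 1.04). Tuba1b and Tubb5 lay at the limit, at 1.55 and 1.51, and fell short of it outside the monocyte-like and neutrophil-like clusters, at 1.49 and 1.47. Tubulin genes are close copies of each other, which makes their separate counts uncertain.

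Of the mitotic cyclins and kinases, 15 of 17 were higher (median log2 ratio 1.82). Nek2, a centrosome kinase, had 30.5 CPM in members and 5.6 CPM in the others (ratio 5.48, 3.78 to 8.02), and Bub1, a kinase of the spindle checkpoint, 36.3 and 8.2 CPM. Cdk1 had 242 CPM in members and 72.8 CPM in the others (3.32, 2.97 to 3.72) and Ccna2, cyclin A2, 158 and 44.6 CPM (3.53, 3.07 to 4.07). Aurka and Aurkb, the Aurora kinases of the spindle poles and of the centromere, had ratios of 4.40 and 3.83. In CD, Cdk1 stood at 3.80 CPM, Aurka at 0.991 CPM and Ccna2 and Aurkb at 0.661 CPM each. These CD values rest on few barcodes. Before thinning, Cdk1 was found in 22 of 609, Aurka in 5, Ccna2 in 2 and Aurkb in 4. Cks2 and Cks1b, small partners of the cyclin-dependent kinases, were the most abundant of the list, with Cks2 at 326 CPM in members and 108 CPM in the others. Pkmyt1, which restrains Cdk1 before mitosis, had 19.7 CPM in members and 13.8 CPM in the others (ratio 1.43, 1.02 to 1.99) and was not counted as higher.

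Kinetochore and centromere genes followed, with 22 of 23 higher (median log2 ratio 1.60). Casc5, the scaffold Knl1 that recruits the checkpoint, had 57.8 CPM in members and 10.2 CPM in the others (5.68, 4.34 to 7.48). Cenpa, the histone H3 variant that marks centromeres, had 250 CPM in members and 74.3 CPM in the others (3.36, 3.01 to 3.75). Cenpk was not counted as higher, at 16.5 and 14.7 CPM. Of the condensin, cohesin and chromosome genes 21 of 27 were higher (median log2 ratio 0.90). Smc4 and Smc2, the core of condensin, had 206 and 157 CPM in members and 62.3 and 50.9 CPM in the others. The chromatin protein gene Hmgb2 had 1219 CPM in members and 415 CPM in the others, and H2afz, a histone variant, 2026 and 1323 CPM. Of the anaphase promoting complex and its targets 7 of 21 were higher (median log2 ratio 0.36). These included Ccnf (ratio 3.39), Cdca3 (3.15), the second ubiquitin conjugating enzyme of the complex Ube2s (2.59) and its activator Fzr1 (2.41). The core subunits Anapc4, Anapc10 and Anapc13 had ratios of 0.94, 0.94 and 1.09.

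Among genes with at least 50 CPM, 12 of the 15 highest ratios belonged to genes of these lists: Pbk, Racgap1, Ccna2, Cdca8, Cenpa, Cdk1, Smc4, H2afx, Cdca3, Smc2, Cks2 and Hmgb2. Pbk, a mitotic kinase, led them at 115 CPM in members and 28.7 CPM in the others (3.99, 3.36 to 4.74). Outside the lists of mitosis stood Kpna2, an importin of nuclear transport, at 113 CPM in members and 29.4 CPM in the others (3.84), Hist1h2ap, a replication-dependent histone H2A gene, at 543 and 143 CPM (3.79), and Cdkn2c. Hist1h2ap belongs to a family of near-identical genes whose messages largely lack a poly(A) tail, so its count is uncertain. Cdkn2c is on the list of G1 cyclins and cycle inhibitors, of which 4 of 24 were higher and 0 lower. The 4 were Cdkn2d (p19, ratio 3.31), Cdkn2c (p18, 3.10), Cdkn3, a phosphatase acting on Cdk1 (3.07), and Rbl1 (p107, 1.73). Ccnd1, cyclin D1, had 112 CPM in members and 158 CPM in the others, and Cdkn1a (p21) 134 and 152 CPM.

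S phase genes went both ways. Of 44 measured, 7 were higher and 5 lower in members (median log2 ratio 0.13). Rad51ap1, of homologous recombination, Tk1, thymidine kinase, and Rrm2, of ribonucleotide reductase, had ratios of 2.05, 1.87 and 1.65. The lower genes were Hells, a chromatin remodeller (ratio 0.53), Ccne1 and Ccne2, the cyclins E of S phase entry (ratios 0.55 and 0.56), Ung (0.61) and the replication helicase subunit Mcm6, at 52.4 and 79.5 CPM (0.66, 0.55 to 0.79). Pcna, the clamp of DNA polymerase, had 161 CPM in members and 157 CPM in the others (1.03, 0.92 to 1.14). When the barcodes were divided by score into 5 groups of equal size, of which the members are the highest, the summed S phase list stood at 1388, 1562, 2324, 2494 and 2246 CPM from the lowest group to the members. Its highest value was thus in the group just below the members. The G2 and mitosis lists without the 12 genes summed to 7765, 8768, 10575, 13879 and 19860 CPM, with the highest value in the members.

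**Figure D3:**
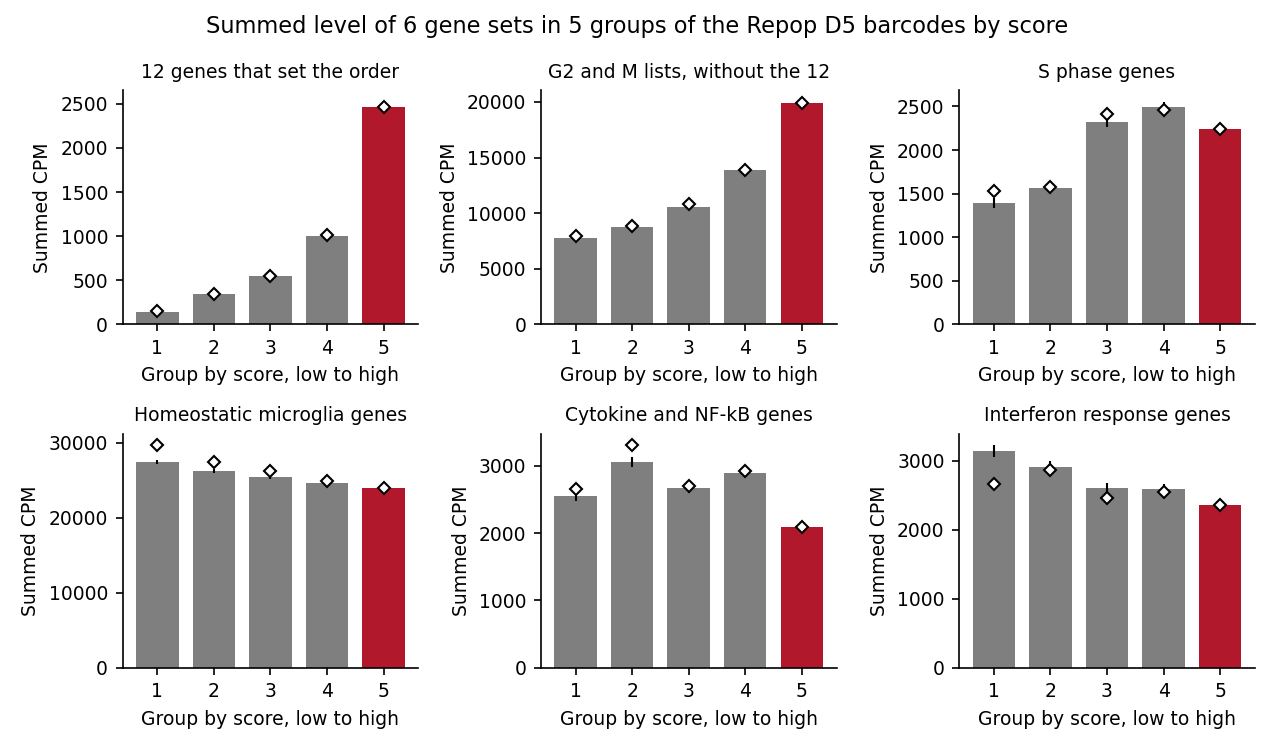
Summed CPM (vertical axes, from 0) of 6 gene sets in 5 groups of the 553 Repop D5 barcodes ordered by score (horizontal axes, low to high). The group of the members is red, black lines are exact 95% counting intervals and diamonds are the same groups outside the monocyte-like and neutrophil-like clusters. The S phase list is highest just below the members at 2494 CPM, and the cytokine list is lowest in the members at 2093 CPM.

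For a view of DNA copying within the members, the 111 barcodes with the highest share of the S phase list were taken as S-high. Of the members, 22 were S-high (19.8%, 12.9 to 28.5) and 89 were not, which left 89 S-high barcodes outside. By the way they were taken, S-high barcodes are 20.1% of all 553, so the share among members is close to that of the whole library and nothing is read from the overlap. Spearman's rho between the score and the S phase share was 0.346 over the 553 barcodes and -0.114 within the 111 members. These shares use the same totals, and both limits cut through a continuous range.

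**Figure D4:**
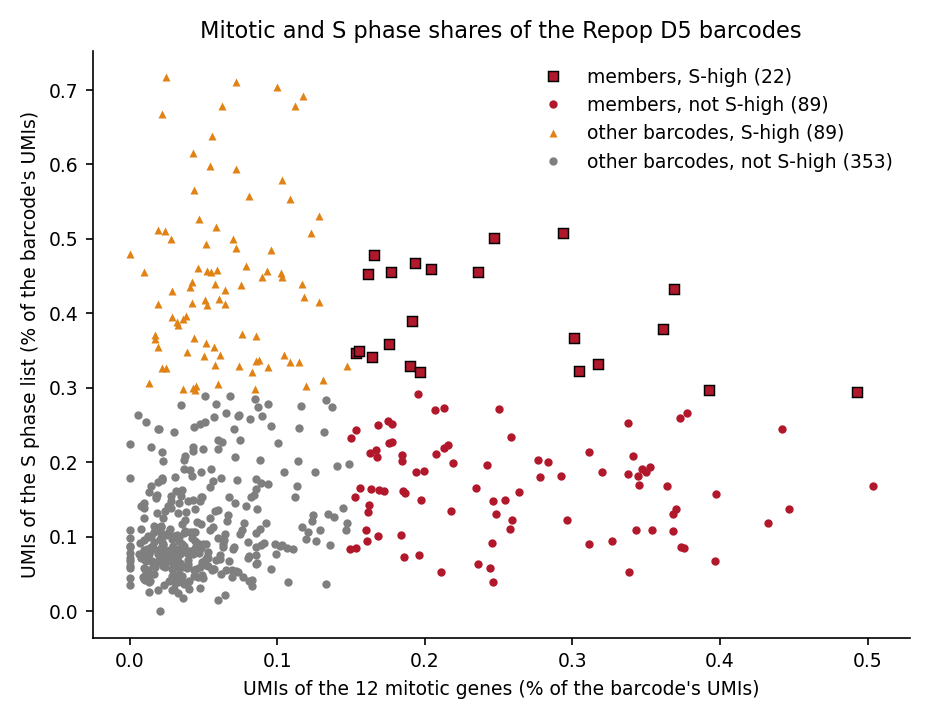
Share of UMIs from the 12 mitotic genes (horizontal axis, percent) against the share from the S phase list (vertical axis, percent) for the 553 Repop D5 barcodes. Red squares are the 22 S-high members, red circles the 89 other members, orange triangles the 89 S-high barcodes outside the members and grey circles the rest. Of the members, 22 lie above the S-high limit, and neither limit falls in a gap.

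Within the members, the 22 S-high barcodes and the other 89 differed in more than the S phase genes that set them apart. The 12 genes summed to 2384 CPM in S-high members and 2489 CPM in the other members, while single genes differed. Ccnb2 had 88.4 CPM in S-high members and 185 CPM in the others, and Cdc20 105 and 162 CPM, whereas Top2a had 514 and 310 CPM. Nek2 had a ratio of 0.32, Knstrn (kinastrin, a spindle protein) had 58.9 CPM in S-high members and 122 CPM in the other members (0.48), Arl6ip1 432 and 782 CPM (0.55) and Cenpa 162 and 274 CPM (0.59). In the other direction, Hist1h2ap had 929 CPM in S-high members and 434 CPM in the other members (2.14, 1.93 to 2.38), and Fbxo5 (Emi1, which restrains the anaphase promoting complex until mitosis) had a ratio of 2.72. Rrm2, at 280 and 73.1 CPM, and Dut, at 183 and 59.3 CPM, are on the S phase list, so their ratios of 3.83 and 3.09 follow from the choice. Over all 7157 genes, 273 were higher (3.81%) and 156 lower (2.18%) in S-high members. The sum over 22 barcodes can rest on a few of them, and median depth was 23566 UMIs in S-high members and 21867 UMIs in the others.

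**Figure D5:**
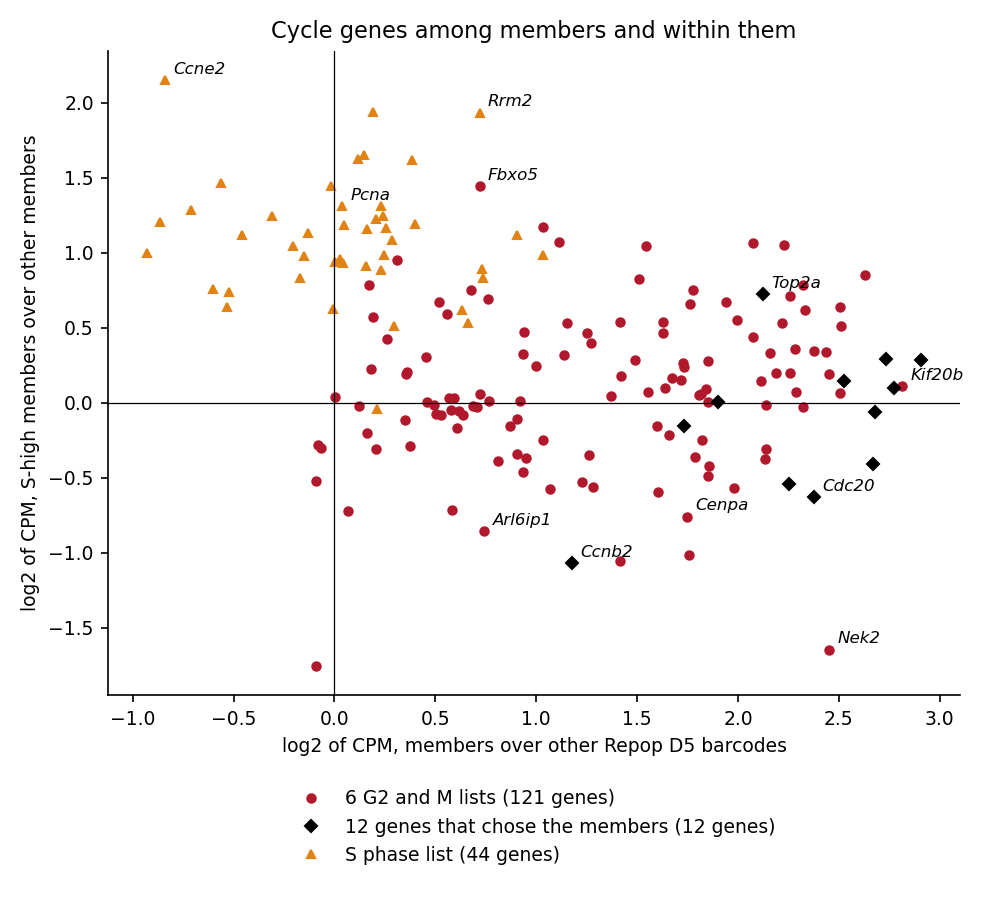
Each point is a gene, placed by its log2 ratio between members and other Repop D5 barcodes (horizontal axis) and its log2 ratio between S-high members and the other members (vertical axis). Red circles are genes of the 6 G2 and mitosis lists, black diamonds the 12 genes that chose the members and orange triangles the S phase list, which chose the S-high barcodes. Nek2 and Ccnb2 lie low on the vertical axis, with ratios of 0.32 and 0.48, and Ccne2 and Rrm2 high, with ratios of 4.45 and 3.83.

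The 89 members that were not S-high were then set against the 89 S-high barcodes that were no members. Of the 7157 genes 345 were higher (4.82%) and 328 lower (4.58%) in these members. Among genes with at least 50 CPM, the 12 genes left out, Cenpa had the largest ratio, 274 CPM in these members and 46.1 CPM in the S-high barcodes (5.95, 4.79 to 7.47). Next in that range came Knstrn (3.28), Cdca3 (3.17) and Racgap1 (3.05), then H1f0, a linker histone gene, at 176 and 58.7 CPM (3.00). Less abundant genes had larger ratios than Knstrn, among them Nek2 (4.93), Kif20b (4.84) and Kif4, a kinesin of chromosomes (4.74). All 24 spindle genes were higher, against 13 of 23 kinetochore and centromere genes, and Cenpk (0.41) was lower. Of the mitotic cyclins and kinases 12 of 17 were higher, and of the anaphase promoting complex and its targets 6 of 21. Of the condensin, cohesin and chromosome genes 8 of 27 were higher, where 21 of 27 were higher against all others. Of the tubulin and stathmin genes 2 of 10 were higher. Each of these 4 lists had 1 gene lower, among them Fbxo5 (0.47) and Pkmyt1 (0.53). The S phase list, which chose the barcodes on the other side, had 39 of 44 lower. Outside it, Il1b had 20.7 CPM in these members and 62.1 CPM in the S-high barcodes, and Siva1, an apoptosis-related gene, 56.1 and 152 CPM.

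Of 30 homeostatic genes, known from microglia at rest, 0 were counted as higher or lower in members, and their median log2 ratio was -0.10, with 9 of the 30 above 0. The shares over all genes were 4.74% higher and 2.32% lower, so a count of 0 in 30 is near them. The sum weighs abundant genes most. The summed homeostatic list stood at 27473, 26214, 25401, 24573 and 23913 CPM in the 5 groups by score from the lowest to the members, and at 29669 CPM in the lowest group and 23913 CPM in the members outside the monocyte-like and neutrophil-like clusters. It was thus lower in each group than in the one before, by small steps. Most of the difference in the sum between members and the others lay in 1 gene, Cst3, cystatin C. The 30 genes summed to 23904.2 CPM in members and 25708.5 CPM in the others, and Cst3 alone had 6114 and 7486 CPM. Cx3cr1, the fractalkine receptor, had 1612 CPM in members and 1366 CPM in the others (1.18, 1.14 to 1.22). Outside the monocyte-like and neutrophil-like clusters 1 of the 30, Ecscr, was lower (0.66). The 12 genes that were high in the whole Repop D5 library outside the cycle, a list drawn up from earlier results of these data, had 0 counted either way. Among them Vim, vimentin, had 459 CPM in members and 460 CPM in the others, and Ass1, argininosuccinate synthase, 84.4 and 98.6 CPM, against 1.82 CPM in CD. Glycolysis (12 genes), nuclear oxidative phosphorylation (45), cholesterol synthesis (21), proteasome (28), ribosomal protein (97) and mitochondrially encoded genes (13) also had 0 counted either way, with median log2 ratios between -0.08 and 0.06. In lists of 12 to 28 genes a count of 0 is near what the shares over all genes give. Gapdh, for example, had 2634 CPM in members and 2535 CPM in the others.

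Among the lower genes, those of neutrophils and monocytes led. Plac8 had 12.9 CPM in members and 91.7 CPM in the others, S100a8 269 and 1211 CPM, Cd74, the invariant chain of MHC class II, 134 and 366 CPM, and Lyz2, lysozyme, 664 and 1233 CPM. Also among the 15 lowest were Wfdc21, Camp, Lcn2, Retnlg, Ngp, S100a9, S100a11, H2-Aa, H2-Eb1 and H2-Ab1. Plac8 stood at 739 CPM in the 50 monocyte-like barcodes and S100a8 at 121570 CPM in the 7 neutrophil-like ones, all of which are outside the members. With those 57 barcodes left out, Plac8 had 20.7 CPM and S100a8 437 CPM in the other barcodes, ratios of 0.62 and 0.61. Cd74 then had a ratio of 0.70 and Lyz2 of 0.91, neither counted. Of the neutrophil genes, Retnlg was still lower, at 28.0 CPM in members and 61.4 CPM in the other barcodes (0.46, 0.35 to 0.58), while Ngp turned to 1.06. All 4 MHC class II genes counted as lower of 8 (H2-Aa, Cd74, H2-Eb1 and H2-Ab1) and all 3 of 20 disease-associated microglia genes (Lyz2, Apoe and Lgals3) were no longer counted without those barcodes.

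Some cytokine and immediate early genes were lower with and without those barcodes. Of 18 cytokine and NF-kB genes 4 were lower in members and 0 higher, and 5 were lower outside the monocyte-like and neutrophil-like clusters. Of all genes 2.32% were lower, and 1.75% outside those clusters. Il1b, interleukin 1 beta (chromosome 2, 129364570 to 129371139), had 23.3 CPM in members and 64.3 CPM in the others (0.36, 0.28 to 0.47), and 60.8 CPM in the others outside those clusters. The chemokine genes Ccl7 and Ccl12 had 8.6 and 690 CPM in members and 37.9 and 1064 CPM in the others, and Tnf 52.1 and 78.5 CPM. Ccl3 and Ccl4, chemokines of the same list, had ratios of 1.12 and 1.11. Of 15 immediate early genes Fos, Fosb and Dusp1 were lower, with Fos at 130 CPM in members and 232 CPM in the others (0.56, 0.50 to 0.63), and Jun and Junb had ratios of 0.81 and 0.78. The other 12 were counted neither way. The median log2 ratio of the 15 was -0.31, and -0.05 outside the monocyte-like and neutrophil-like clusters, so the list as a whole differed little there. Of 19 interferon response genes 5 were lower, and outside those clusters 1 remained lower: Ifit3, at 8.3 CPM in members and 23.5 CPM in the others. The cluster led by Dusp2, Tnf and Cxcl10 held 2 members and 46 other Repop D5 barcodes, and the cluster led by Rsad2 and Ifit3 held 1 and 35. The part of these clusters in the lower values was not tested.

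The promoters of the cycle genes were read for the letters of the CHR, TTTGAA, and of the CCAAT box, CCAAT, on both strands. RefSeq promoters (GRCm38.p6, the build that mm10 names, 250 bases before to 50 after the start of the gene) were matched by symbol for 12 of the 12 genes that chose the members, 95 of the 121 other measured G2 and mitosis genes and 33 of the 44 S phase genes. TTTGAA was found in 8 of 12, in 51 of 95 (53.7%) and in 6 of 33 (18.2%). It was found in 96 of 251 matched genes that were higher in members (38.2%), in 16 of 132 that were lower (12.1%) and in 14.1% of 5554 matched genes among all measured. Over all 27025 genes of the table it was found in 20.2%. CCAAT was found in 10 of 12, in 67.4% of the other G2 and mitosis genes, in 60.6% of the S phase genes, in 58.2% of the higher genes and 40.2% of the lower ones, in 42.7% of all matched measured genes and in 41.1% of all genes of the table. Both together were found in 8 of 12, in 42.1% of the other G2 and mitosis genes, in 12.1% of the S phase genes, in 28.7% of the higher and 5.30% of the lower genes, in 5.80% of all matched measured genes and in 7.97% of all genes of the table. A match may share letters with another match of either motif. A match is a description of letters and not a binding site. Shown are Cdc20 and Ube2c of the 12 genes, Cdk1 as a higher gene that did not choose the members, and Pcna as an S phase gene with a ratio near 1. Each is given 5′ to 3′ on the strand of its gene with the matches to the motifs or to their reverse complements in capitals, and the start of the gene is base 251. The regions are chr4:118437294-118437593 (minus strand) for Cdc20, chr2:164769679-164769978 (plus) for Ube2c, chr10:69352863-69353162 (minus) for Cdk1 and chr2:132253131-132253430 (minus) for Pcna.
Cdc20: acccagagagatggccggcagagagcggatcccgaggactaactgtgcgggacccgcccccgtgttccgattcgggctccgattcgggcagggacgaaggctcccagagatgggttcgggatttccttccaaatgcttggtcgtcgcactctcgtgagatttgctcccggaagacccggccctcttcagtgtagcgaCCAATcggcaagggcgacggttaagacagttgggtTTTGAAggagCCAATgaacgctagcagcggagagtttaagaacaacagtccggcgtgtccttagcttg
Ube2c: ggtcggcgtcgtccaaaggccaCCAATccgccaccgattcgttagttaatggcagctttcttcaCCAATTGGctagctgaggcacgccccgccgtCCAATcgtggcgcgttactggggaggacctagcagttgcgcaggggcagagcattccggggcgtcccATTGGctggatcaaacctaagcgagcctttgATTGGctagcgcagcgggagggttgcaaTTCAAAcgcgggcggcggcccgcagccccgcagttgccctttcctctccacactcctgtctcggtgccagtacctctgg
Cdk1: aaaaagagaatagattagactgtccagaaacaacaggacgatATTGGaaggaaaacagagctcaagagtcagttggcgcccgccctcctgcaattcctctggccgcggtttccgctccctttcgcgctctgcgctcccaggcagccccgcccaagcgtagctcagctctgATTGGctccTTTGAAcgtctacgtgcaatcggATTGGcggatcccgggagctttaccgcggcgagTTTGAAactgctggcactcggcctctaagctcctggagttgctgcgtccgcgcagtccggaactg
Pcna: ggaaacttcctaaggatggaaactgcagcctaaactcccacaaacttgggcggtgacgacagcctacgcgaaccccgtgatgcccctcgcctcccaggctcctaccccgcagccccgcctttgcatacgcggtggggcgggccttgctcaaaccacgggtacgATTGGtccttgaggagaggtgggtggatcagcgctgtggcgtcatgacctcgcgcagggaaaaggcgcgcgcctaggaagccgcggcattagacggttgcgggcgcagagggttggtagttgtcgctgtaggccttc
The single TTTGAA match of Cdc20 begins at base 233 and that of Ube2c, on the opposite strand, at base 222, both shortly before the start. Ube2c has 6 CCAAT matches, of which 1 pair overlaps, and Cdc20 has 2. Pcna has 1 CCAAT match and none of TTTGAA.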

How the data were processed

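Droplet single-cell RNA of CD11b+/CD45+ mouse brain cells was measured in 1 Repop D5 and 1 CD library. Each deposited matrix lists the UMI count, not normalized, of 27998 genes in every barcode, made by the authors with Cell Ranger 2.1.0 and mm10 per the submitters' processing notes; the rule for calling cells is not given in the sources used here. Barcodes with at least 500 genes and under 10% mt- counts were retained, 553 of 585 in Repop D5 and 609 of 609 in CD. Members and gene lists were chosen with earlier results of these data known. Counts were summed per set and scaled to CPM in Python 3.11.15 with scipy 1.17.1, with exact conditional binomial 95% intervals. The code was run on counts simulated with counting error only, the error these intervals assume. The simulated counts had no spread between barcodes and did not choose the members, so this checks the calculation and not the intervals' fit to these data. Exact binomial (Clopper-Pearson) intervals accompany shares. Genes with at least 10 CPM over the retained Repop D5 barcodes were measured. The genes named are the 15 highest and 15 lowest ratios among those with at least 50 CPM and an interval clear of 1, and of each list the 2 highest, 2 lowest and 2 most abundant. The rule leaves out the 12 genes. Others named in a list are members counted as higher or lower, or known for a stated role; Siva1 and H1f0 come from the same rule in their comparison, and Fbxo5, Pkmyt1, Nek2 and Cenpk were picked for the comparisons of S-high barcodes after their values were seen. Clusters of both libraries (scanpy 1.11.5, Leiden resolution 1, 30 components, 2000 variable genes) named the monocyte-like and neutrophil-like barcodes. Of the clusters holding Repop D5 barcodes outside these, none had a microglia marker among its 10 leading genes, that of most members included. In 1 of them the neural progenitor marker Nes was among these genes. The rest is therefore called by what it leaves out. Scrublet called doublets, with an expected share of 5%, and they stayed in. Gene coordinates are from GENCODE M21, which held 193 of 194 identifiers looked up. Alternatives covered the cell filter, the size and scoring of the member set, scaling, gene minimums, the fold, doublets, depth and the authors' pooled matrix of counts, which holds 96.8% of the library's UMIs.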

Additional observations from a re-analysis of the deposited data

How the results depend on the processing

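No paired analysis was possible because each group is 1 library and no result comes from a test. For the same reason no replicate could be left out. Of 7157 genes 339 were higher and 166 lower. With a gene minimum of 50 CPM 66 were higher and 28 lower, with 1 CPM 555 and 345, with a fold of 2 136 and 54, and against the lowest 20% of barcodes 693 and 257; equal weight per barcode gave 260 lower. Trimmed-mean scaling gave 295 higher and 200 lower, and the share of higher genes among those counted was 59.6% under it and 67.1% in the values given above. The G2 and mitosis count of 93 ran from 71 to 108, apart from 34 with 50 CPM. S phase genes, 7 higher and 5 lower, came to 4 and 1 with 50 CPM, 1 and 0 with a fold of 2, and 18 and 0 against the lowest 20%, while 10 were lower with the top 10% as members, 2 with the top 30% and 3 with members chosen on the 6 odd genes. The interferon, cytokine, immediate early and MHC class II genes counted as lower, 16 in all, came to 8 with the top 30%, with the 6 even genes and with a mean log2 score, to 9 with a fold of 2, with 50 CPM and outside the monocyte-like and neutrophil-like clusters, and to 25 with 1000 genes and 5% mt- as the cell filter. Homeostatic genes counted either way, 0 in all, came to 1 with the top 10%, with the pooled matrix and outside those clusters. The ratio of median UMIs, 1.40, was 1.55 with the mean log2 score and 1.73 against the lowest 20%. For 40 named genes under 18 alternatives, 680 of 720 values kept their direction and side of the limit, 22 fell short of it, 17 moved and 1 turned, Ngp at 1.06 outside those clusters. Of the 680, 43 moved by over 1.5 times in size, 22 of them against the lowest 20%, where Hist1h2ap came to 29.8, against 3.79, and 8 with equal weight per barcode; H2-Aa, at 0.34, was 0.60 with the 6 even genes. Of 2034 values of 113 list examples 1833 stayed, 57 fell short, 17 passed the limit, 127 moved and 0 turned. The causes were not tested. At this depth genes under about 10 CPM rest on few counts in the members, and differences between mice cannot be read from 1 pool.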
